A study of Rattus norvegicus with 6 samples.

Results

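Alpha-1 adrenergic receptors act through the Gq class of G proteins, and the genes of that route were followed here in cultured heart muscle cells that were all driven by an alpha-1 agonist. The set holds 9 genes chosen by name: the alpha-1 receptors Adra1a, Adra1b and Adra1d, the beta-1 receptor Adrb1, the G protein alpha subunits Gnaq and Gna11, the regulators of G protein signalling Rgs2 and Rgs4, and the phospholipase C gene Plcb1. Each of the 9 stood on 1 row of the deposited table, among 13843 rows. When an agonist binds an alpha-1 receptor, Gq or G11 activates phospholipase C beta, which splits a membrane lipid into IP3, a releaser of stored calcium, and diacylglycerol, an activator of protein kinase C. Rgs proteins speed up the GTPase of the alpha subunit and so end the signal. In the heart this route is known for driving myocyte growth, while the beta-1 receptor works mainly through Gs and cyclic AMP to raise rate and force.

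RNA was sequenced from ventricular myocytes of newborn rats in 6 libraries, 2 for each of 3 groups. All cultures received phenylephrine (PE), an alpha-1 agonist, and a short hairpin RNA, for 3 days. The PE+TSA+shJIP1 cultures received PE, TSA and a hairpin against JIP1, the PE+TSA cultures PE, TSA and a control hairpin, and the PE cultures PE and the control hairpin. The labels give TSA with no full name; it usually stands for trichostatin A, a histone deacetylase inhibitor. JIP1, the product of Mapk8ip1, is a scaffold of the JNK kinase cascade. The labels call the hairpin group a knockout in some fields and give its treatment as a hairpin, which is the wording used here. The rat strain, the way the hairpins were delivered and whether same-group libraries were grown separately are not given in the labels, so the p-values measure only the spread between these libraries, which may be technical. Cultures without PE were not analysed here, so every value below is a level under continued alpha-1 stimulation.

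Levels are in FPKM, which divides the reads of a gene by its length and by the size of the library, so that genes can be set beside each other. Read totals are not known from such values, but from their steps PE replicate 2 had 0.048 of the depth of PE replicate 1, and the other 4 libraries had 0.722 to 1.34 of it. A value of 0 was listed for 3667 features in PE replicate 2, against 1407 to 1837 elsewhere. The hairpin target Mapk8ip1 was at 1.8 and 3.65 FPKM in PE+TSA+shJIP1, 14.6 and 17.9 under PE+TSA, and 3.77 and 4.39 in PE. Its difference between PE+TSA+shJIP1 and PE+TSA was -2.25 ± 0.34 (SE) on the log2 scale (limma adjusted p = 0.077), short of the threshold although the groups did not overlap. Genes of heart muscle were high throughout: 7 of 8 muscle markers were on a row, and their summed level was 4240 to 7920 FPKM in PE+TSA+shJIP1, 4120 to 8150 in PE+TSA and 12200 to 15200 in PE. Fibroblast markers summed to 564 to 675, 523 to 728 and 1050 to 1700 FPKM in the same order, and smooth muscle and pericyte markers to 498 to 520, 266 to 407 and 1360 to 1670. Endothelial markers (8.08 to 11.6, 17 to 38.3 and 13.2 to 15.8 FPKM), macrophage markers (4.37 to 5.63, 4.81 to 10.9 and 8.21 to 9.98) and Schwann and neural crest markers (3.17 to 5.99, 3.9 to 5 and 0.769 to 2.73) were low. The fibroblast gene Col1a2 was listed at 0 in 5 libraries in which Col1a1 was at 284 to 1050 FPKM, so a listed 0 is not always absence of RNA.

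Differences were tested with limma on log2(FPKM + 1), a scale that understates the change of low genes, across the 10359 features that averaged 1 FPKM or more, and a feature was called at a Benjamini-Hochberg adjusted p under 0.05 over all of them. Of the 9 genes, 8 passed this filter, and Plcb1, with a mean of 0.714 FPKM, did not. Adra1d passed it through the TSA-treated libraries alone, since its PE values lay below 1 FPKM. The counts below include it, but its part in them is no support, since the filter favoured a difference from PE. In PE+TSA+shJIP1 against PE, Adra1a, Gna11 and Rgs2 fell and none of the 9 rose, where 4.16% of all features fell and 4.11% rose (8.27% called in all). Of the 8, 6 had an unadjusted p under 0.05, Adra1d included (30.7% of all features), 6 had groups that did not overlap (60.6%) and 4 were below 0 (44.4%). In PE+TSA against PE none of the 8 was called, where 0.811% of all features were (0.627% higher and 0.183% lower). An unadjusted p under 0.05 was reached by 4, Adra1d included (18.7% of all features), 5 had groups that did not overlap (50.6%) and 5 were below 0 (42.9%). In PE+TSA+shJIP1 against PE+TSA none was called either, where 0.29% of all features were (0.183% higher and 0.106% lower). Here 3 had an unadjusted p under 0.05 (14.9%), 6 had groups that did not overlap (50%) and 3 were below 0 (50.2%). The median change of the 8 genes was -0.28 with TSA, 0.12 with the hairpin and 0.11 with both, beside 0.10, -0.00 and 0.10 for all features tested. The 3 comparisons share libraries, so they are not independent of each other.

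**Figure D1:**
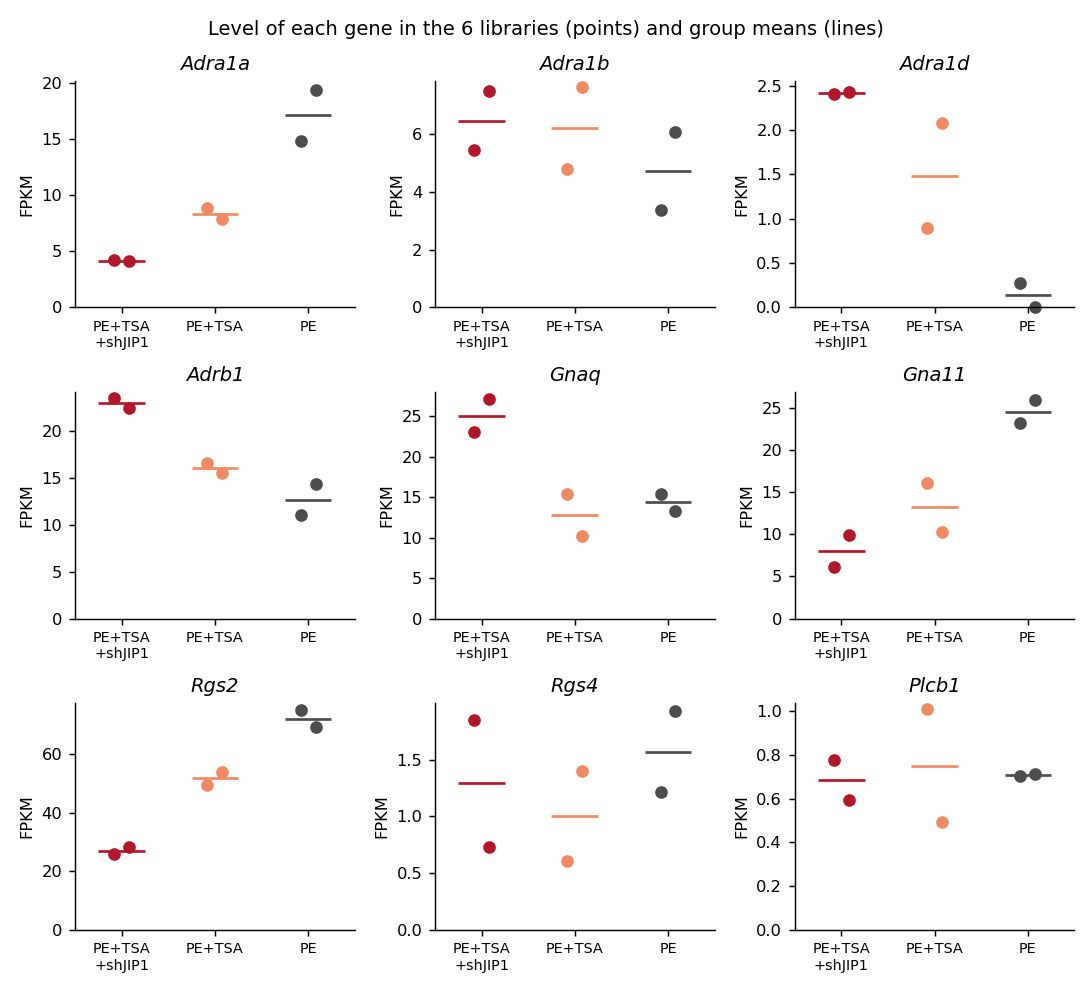
FPKM of each of the 9 genes on a linear axis from 0, with the groups PE+TSA+shJIP1, PE+TSA and PE from left to right, a point for each library and a line at the mean of 2 libraries. Adra1a, Gna11 and Rgs2 are lowest in PE+TSA+shJIP1 and highest in PE, with Adra1a at 4.19 and 4.12 FPKM against 14.8 and 19.4, while Adrb1 and Adra1d run the other way.

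Of the receptors, Adra1a alone was called. Adra1a, which encodes the alpha-1A receptor, was at 4.19 and 4.12 FPKM in PE+TSA+shJIP1, 8.86 and 7.84 under PE+TSA, and 14.8 and 19.4 in PE. The groups did not overlap, and each step from PE to TSA to TSA with the hairpin was lower than the one before. With both agents Adra1a fell relative to PE by 1.80 on the log2 scale (change -1.80 ± 0.26 SE, limma adjusted p = 0.0194). The steps on their own did not pass, at -0.94 ± 0.26 in PE+TSA against PE (adjusted p = 0.148) and -0.86 ± 0.26 in PE+TSA+shJIP1 against PE+TSA (adjusted p = 0.218). In cultured rat myocytes the alpha-1A transcript is known as the subtype that alpha-1 agonists themselves induce. In these bulk cultures a smaller share of cells that express the gene and less RNA per cell cannot be told apart. All 7 muscle markers tested were likewise lower in PE+TSA+shJIP1 than in PE, with Pln and Tnni3 called (log2 change -2.55 and -2.10, limma adjusted p = 0.049 and 0.0275), and their part in the fall of Adra1a was not tested. Between PE+TSA+shJIP1 and PE+TSA the summed muscle markers overlapped. None of the 7 tested was called there, and their median log2 difference was -0.09. Pln (-2.22) and Tnni3 (-1.20) did not overlap and differed by more than Adra1a. Myl2 (0.41), Tnnt2 (0.01), Actn2 (-0.02), Myh6 (-0.09) and Ryr2 (-0.53) overlapped. The call of Adra1a held in 9 of 14 alternative settings, and was lost without PE replicate 2 (-1.62, adjusted p = 0.0826), without PE+TSA replicate 1 or 2 (adjusted p = 0.0519 and 0.0518) and without PE+TSA+shJIP1 replicate 1 or 2 (0.1 and 0.13).

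Adra1b, which encodes the alpha-1B receptor, was at 5.45 and 7.5 FPKM in PE+TSA+shJIP1, 4.79 and 7.64 under PE+TSA, and 3.39 and 6.07 in PE. The 3 groups overlapped, and the 2 libraries of each group lay further apart than the group means. Its change with both agents was 0.41 ± 0.38 on the log2 scale (limma adjusted p = 0.497, 95% interval -0.51 to 1.33), and the interval of the hairpin step was -0.85 to 0.98. Adra1d, the alpha-1D receptor gene, was the scarcest receptor of the set, at 2.41 and 2.43 FPKM in PE+TSA+shJIP1, 0.893 and 2.08 under PE+TSA, and 0.276 and a listed 0 in PE. Both TSA-treated groups lay above both PE libraries, and the listed 0 stood in the shallow PE replicate 2. The log2 difference between PE+TSA+shJIP1 and PE was 1.60, which a smaller pseudocount, 0.1, moved to 3.70. No p is given for it, since the filter admitted the gene through the libraries in which it was high.

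Within each library the 3 alpha-1 receptors made up a different mix. Adra1a held 34.8% and 29.3% of their summed FPKM in PE+TSA+shJIP1, 60.9% and 44.6% under PE+TSA, and 80.2% and 76.1% in PE. Adra1b held 45.2% and 53.4% in PE+TSA+shJIP1, 32.9% and 43.5% under PE+TSA, and 18.4% and 23.9% in PE. The most abundant alpha-1 receptor transcript was therefore Adra1b in both PE+TSA+shJIP1 libraries and Adra1a in the other 4. Adra1d held 20% and 17.3% in PE+TSA+shJIP1, 6.14% and 11.9% under PE+TSA, and 1.49% and 0% in PE. The sum itself was 12.1 and 14 FPKM in PE+TSA+shJIP1, 14.5 and 17.6 under PE+TSA, and 18.5 and 25.4 in PE. These shares do not depend on a single scaling factor per library, and were computed after the values had been seen. They were not tested. An exact two-sided permutation test of 2 libraries against 2 cannot go below p = 0.333.

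**Figure D2:**
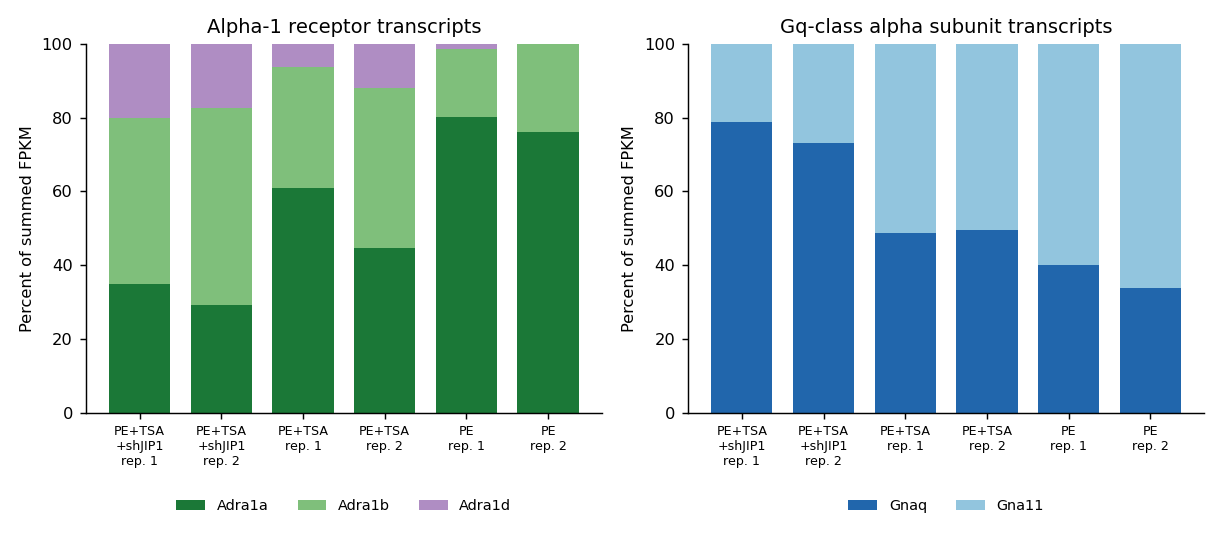
Share of the summed FPKM, in percent, of Adra1a, Adra1b and Adra1d (left) and of Gnaq and Gna11 (right), with a bar for each library and PE+TSA+shJIP1, PE+TSA and PE from left to right. Adra1a makes up 34.8% and 29.3% of the alpha-1 sum in PE+TSA+shJIP1 and 80.2% and 76.1% in PE, and Gnaq 78.9% and 73.1% of its pair in PE+TSA+shJIP1 and 40% and 33.9% in PE.

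Adrb1, the beta-1 receptor gene, was at 23.5 and 22.4 FPKM in PE+TSA+shJIP1, 16.6 and 15.5 under PE+TSA, and 11 and 14.3 in PE. The groups did not overlap and stood in the reverse order of Adra1a. No comparison passed: the log2 difference was 0.82 ± 0.23 between PE+TSA+shJIP1 and PE (limma adjusted p = 0.0721), 0.49 ± 0.23 between PE+TSA+shJIP1 and PE+TSA (adjusted p = 0.383) and 0.33 ± 0.23 between PE+TSA and PE (adjusted p = 0.457). The adrenergic receptor genes Adra2a, Adra2b, Adra2c and Adrb3 did not reach the filter and were each listed at 0 in at least 1 library.

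The alpha subunits Gnaq and Gna11, close paralogs, both couple alpha-1 receptors to phospholipase C, and of the pair Gna11 alone was called. Gna11 was at 6.14 and 9.95 FPKM in PE+TSA+shJIP1, 16.1 and 10.3 under PE+TSA, and 23.2 and 25.9 in PE. All 4 TSA-treated libraries lay below both PE libraries. Gna11 fell with both agents (log2 change -1.53 ± 0.32, limma adjusted p = 0.0419), and its changes with TSA (-0.87 ± 0.32, adjusted p = 0.227) and with the hairpin (-0.66 ± 0.32, adjusted p = 0.415) did not pass. That call held in 5 of 14 alternatives and was lost with no filter (adjusted p = 0.0605), with a prior variance that does not follow the level (0.0561), with the replicate block (0.0535) and without any of the 6 libraries (0.0738 and 0.145 without PE replicates 1 and 2, 0.072 and 0.0723 without PE+TSA replicates 1 and 2, 0.16 and 0.132 without PE+TSA+shJIP1 replicates 1 and 2), while its change stayed between -1.84 and -1.22.

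Gnaq was at 23 and 27.1 FPKM in PE+TSA+shJIP1, 15.4 and 10.2 under PE+TSA, and 15.4 and 13.3 in PE. Both hairpin libraries lay above the other 4, and PE+TSA overlapped PE. The log2 difference was 0.94 ± 0.27 between PE+TSA+shJIP1 and PE+TSA (limma adjusted p = 0.201) and 0.76 ± 0.27 between PE+TSA+shJIP1 and PE (adjusted p = 0.119), so neither passed. It was -0.18 ± 0.27 between PE+TSA and PE (adjusted p = 0.744) and 0.10 without PE+TSA replicate 2. Gnaq made up 78.9% and 73.1% of the sum of the pair in PE+TSA+shJIP1, 48.8% and 49.6% under PE+TSA, and 40% and 33.9% in PE. The sum was 29.1 and 37.1 FPKM in PE+TSA+shJIP1, 31.5 and 20.5 under PE+TSA, and 38.6 and 39.2 in PE. How reads shared by the paralogs were assigned is not given in the sources used here.

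Rgs2, a GTPase-activating protein with a preference for Gq, was the most abundant transcript of the set in every group. It was at 26 and 28.2 FPKM in PE+TSA+shJIP1, 49.4 and 54.1 under PE+TSA, and 75 and 69.5 in PE. The groups did not overlap, with PE+TSA+shJIP1 lowest and PE highest. With both agents Rgs2 fell (log2 change -1.38 ± 0.19, limma adjusted p = 0.0174). The hairpin step was -0.91 ± 0.19 (unadjusted p = 0.00241, limma adjusted p = 0.117) and the TSA step -0.47 ± 0.19 (adjusted p = 0.246). Muscle, fibroblast and smooth muscle markers were also lower in PE+TSA+shJIP1 than in PE (7 of 7, 7 of 7 and 6 of 7 tested). In the hairpin step 5, 1 and 3 of 7 were lower, with median log2 differences of -0.09, 0.05 and 0.20. The part of these markers in the falls of Rgs2 and Gna11 was not tested. The call held in 11 of 14 alternatives and was lost without PE replicate 2 (-1.44, adjusted p = 0.0721) and without PE+TSA+shJIP1 replicate 1 or 2 (-1.32 and -1.44, adjusted p = 0.098 and 0.116).

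Rgs4, which acts on both Gq and Gi subunits, was at 1.85 and 0.732 FPKM in PE+TSA+shJIP1, 0.602 and 1.4 under PE+TSA, and 1.21 and 1.93 in PE. The groups overlapped, and the direction of 2 of its 3 differences turned with a library left out. Its change with both agents was -0.20 ± 0.47 (limma adjusted p = 0.807, 95% interval -1.34 to 0.95). Plcb1, the phospholipase C beta isoform that Gq activates in many tissues, was at 0.778 and 0.595 FPKM in PE+TSA+shJIP1, 1.01 and 0.491 under PE+TSA, and 0.702 and 0.712 in PE. With no filter its changes were 0.02 with TSA, -0.04 with the hairpin and -0.02 with both, each ± 0.23 (limma adjusted p = 0.993, 0.97 and 0.993), and at levels under about 1 FPKM the log2(FPKM + 1) scale compresses any difference.

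**Figure D3:**
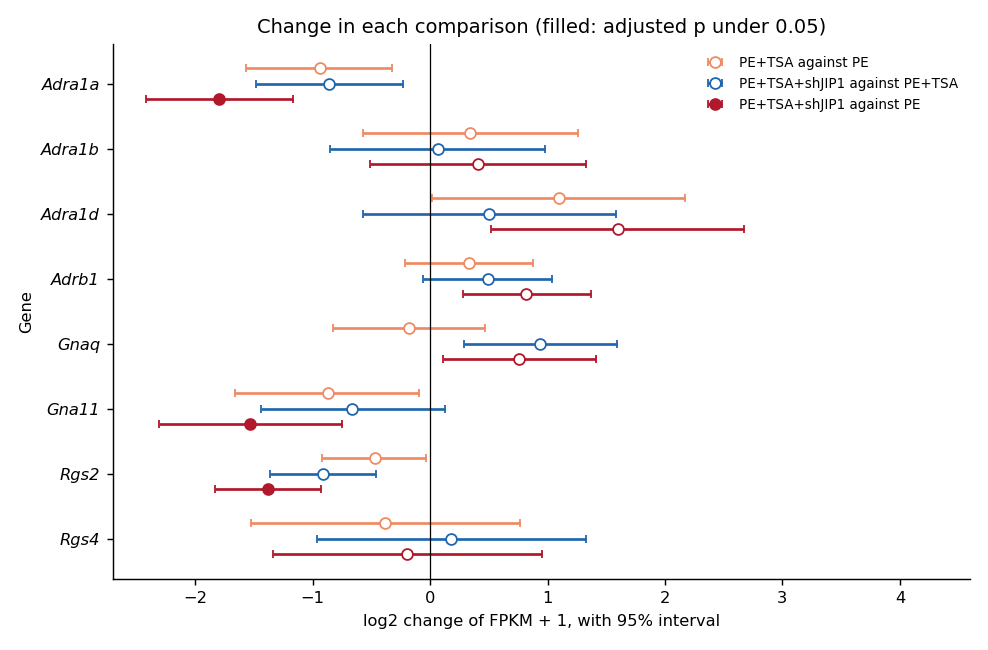
Change on the log2(FPKM + 1) scale of the 8 genes that passed the filter in the 3 comparisons, with 95% intervals from limma and 2 libraries a group, where filled points have an adjusted p under 0.05. The filled points are those of Adra1a (-1.80), Gna11 (-1.53) and Rgs2 (-1.38) in PE+TSA+shJIP1 against PE. Adra1d passed the filter through the TSA-treated libraries, so its intervals are no support for a difference from PE.

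The order of the genes by FPKM differed between groups. In PE+TSA+shJIP1 Rgs2 (mean 27.1 ± 1.58 SD), Gnaq (25.1 ± 2.9) and Adrb1 (23 ± 0.748; n = 2 for each mean here) were the highest, and neighbours in this order overlapped. Gna11 (8.04 ± 2.7) and Adra1b (6.48 ± 1.45) overlapped next, followed by Adra1a (4.16 ± 0.055) and Adra1d (2.42 ± 0.0118), which stood apart, and by Rgs4 (1.29 ± 0.794) and Plcb1 (0.686 ± 0.129), which overlapped. In PE+TSA Rgs2 (51.7 ± 3.26) stood apart from Adrb1 (16.1 ± 0.771), Gna11 (13.2 ± 4.08) and Gnaq (12.8 ± 3.67), where Gna11 overlapped both others. In PE Rgs2 (72.2 ± 3.92) and Gna11 (24.5 ± 1.97) stood apart, and Adra1a (17.1 ± 3.21), Gnaq (14.3 ± 1.5) and Adrb1 (12.6 ± 2.33) overlapped as neighbours. Adra1a thus stood above Gnaq, Adrb1 and Adra1b by mean in PE and below all 3 in PE+TSA+shJIP1.

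Promoter sequence was available for 8 of the 9 genes, in RefSeq on the GRCr8 build, and not for Adra1a. The 250 bases before the start site are shown for Rgs2 and Gna11, which both fell in PE+TSA+shJIP1 against PE, and for Gnaq and Adrb1, whose hairpin libraries were the highest. Capitals mark matches, on either strand, to the GC box GGGCGG, the CCAAT box CCAAT, the CRE core TGACG, the M-CAT core CATTCC (the site of TEAD factors), the TATA box TATAAA or the AP-1 site TGANTCA, and no matches overlapped. The windows are chr13:58352667-58352916 (reverse strand) for Rgs2, chr7:8814035-8814284 (forward strand) for Gna11, chr1:222852203-222852452 (forward strand) for Gnaq and chr1:265776853-265777102 (forward strand) for Adrb1.
Rgs2: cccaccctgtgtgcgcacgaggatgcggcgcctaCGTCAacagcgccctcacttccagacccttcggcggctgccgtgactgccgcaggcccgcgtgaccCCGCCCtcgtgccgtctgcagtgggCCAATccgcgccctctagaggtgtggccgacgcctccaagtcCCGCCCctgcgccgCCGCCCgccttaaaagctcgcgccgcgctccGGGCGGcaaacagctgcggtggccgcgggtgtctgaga
Gna11: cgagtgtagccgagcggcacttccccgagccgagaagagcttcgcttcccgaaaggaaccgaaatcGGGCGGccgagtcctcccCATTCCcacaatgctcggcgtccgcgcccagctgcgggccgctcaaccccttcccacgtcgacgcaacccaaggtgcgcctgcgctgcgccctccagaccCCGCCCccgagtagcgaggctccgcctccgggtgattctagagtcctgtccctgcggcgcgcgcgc
Gnaq: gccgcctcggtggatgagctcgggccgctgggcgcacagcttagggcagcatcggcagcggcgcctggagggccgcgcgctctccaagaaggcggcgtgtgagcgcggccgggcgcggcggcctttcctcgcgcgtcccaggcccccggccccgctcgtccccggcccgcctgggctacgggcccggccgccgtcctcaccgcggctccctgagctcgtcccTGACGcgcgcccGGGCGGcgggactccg
Adrb1: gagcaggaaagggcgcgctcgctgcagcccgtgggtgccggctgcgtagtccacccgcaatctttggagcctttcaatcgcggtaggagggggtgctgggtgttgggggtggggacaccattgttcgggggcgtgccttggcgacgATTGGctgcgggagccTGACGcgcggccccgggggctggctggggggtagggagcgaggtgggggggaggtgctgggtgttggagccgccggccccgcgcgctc
Rgs2 held 4 GC boxes, 1 CCAAT box and 1 CRE core, and Gna11 held 2 GC boxes and 1 M-CAT core. Gnaq held 1 GC box and 1 CRE core, and Adrb1 held 1 CCAAT box and 1 CRE core. Among 33469 promoter windows of the same length, 30.5% held a GC box, 34% a CCAAT box, 18.2% a CRE core, 12.1% an M-CAT core, 12.9% a TATA box and 6.34% an AP-1 site. The GC content of these windows was 72.4% for Rgs2, 70% for Gna11, 80% for Gnaq and 72% for Adrb1, above the median of 51.2% over all promoters. No motif of the 6 was in Rgs2 and Gna11 and in neither Gnaq nor Adrb1. A match here is a run of letters and not a shown site.

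The rest of the route was followed in 11 lists with 153 symbols, of which 140 were on a row and 112 listings passed the filter. In PE+TSA+shJIP1 against PE, 5 of the 112 rose and 3 fell, or 7.14% beside 8.27% of all features, with a median change of 0.06 against 0.10. In PE+TSA+shJIP1 against PE+TSA 1 fell (0.893% against 0.29%), and in PE+TSA against PE none was called (0% against 0.811%). There 17 of the 112 had an unadjusted p under 0.05, as did 18.7% of all features. Without PE replicate 2 none was called in PE+TSA+shJIP1 against PE, and without PE+TSA+shJIP1 replicate 1 or 2 the count was 1, Itpr2, and 0. Without PE+TSA replicate 1 or 2 it was 2 each time, with Prkaca among them.

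Among the other G protein alpha subunits, Gnai1 rose, Gnai2 fell and the other 7 tested were not called with both agents (22.2% called, beside 8.27% of all features). Gnai2, the main inhibitory subunit of the set by FPKM, was at 86.2 and 80.7 FPKM in PE+TSA+shJIP1, 294 and 267 under PE+TSA, and 257 and 201 in PE. It fell both when the hairpin was added to TSA (change of -1.74 ± 0.21 on the log2 scale, limma adjusted p = 0.0458) and with both agents (-1.43 ± 0.21, adjusted p = 0.0194), and was the one pathway gene called for the hairpin step. The hairpin call held in 5 of 14 alternatives and was lost with no filter, with the replicate block, with one prior variance and without any of the 6 libraries. The call with both agents held in 9 of 14, and was lost with any library other than PE replicate 1 left out. Gnai1, its paralog, was at 16.1 and 15.5 FPKM in PE+TSA+shJIP1, 17.3 and 16.1 under PE+TSA, and 5.73 and 2.14 in PE (1.87 ± 0.38 with both agents, adjusted p = 0.0398, and 1.94 ± 0.38 with TSA, adjusted p = 0.0906). Its call with both agents held in 7 of 14 alternatives, and was lost with no filter, with one prior variance and with any library other than PE replicate 1 left out. Gnao1, the Go subunit, was at 41.9 and 40.9 FPKM in PE+TSA+shJIP1, 108 and 80.5 under PE+TSA, and 88.3 and 51.6 in PE (hairpin step -1.15 ± 0.30, adjusted p = 0.174), and Gnai3 was at 51.4 and 56.7, 39.1 and 47.6, and 37 and 27.5 FPKM in the same groups (adjusted p = 0.0927 with both agents). None of the 12 beta and gamma subunit genes tested was called in any comparison: Gnb5 came nearest (1.41 ± 0.34 with both agents, limma adjusted p = 0.0556), and Gnb4, Gng2, Gng3 and Gng13 had adjusted p of 0.079 or more in every comparison. Alternatives called Gng3 with both agents under the replicate block, and Gnb4 in both comparisons with PE without PE replicate 1. Gng13 was listed at 0 in all 4 libraries without the hairpin and was at 1.24 and 6.99 FPKM with it. The filter admitted it through the hairpin libraries alone, so its adjusted p is no support for a difference.

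Of the 20 tested listings of other Gq-coupled receptors and the ligand gene Edn1, none was called in any comparison. With both agents 14 of the 20 were lower (median -0.46), beside 44.4% of all features. F2r, the thrombin receptor, was at 21 and 24.7 FPKM in PE+TSA+shJIP1, 7.92 and 11.6 under PE+TSA, and 9.7 and 12 in PE (hairpin step 1.17 ± 0.27, limma adjusted p = 0.149). Htr2a, a serotonin receptor, was at 2.99 and 2.29 FPKM in PE+TSA+shJIP1, 3.98 and 2.44 under PE+TSA, and 10.8 and 6.63 in PE (-1.39 ± 0.37 with both agents, adjusted p = 0.068). The angiotensin receptor gene Agtr1a and the sphingosine phosphate receptor gene S1pr2 had adjusted p of 0.251 or more and 0.0894 or more. In PE+TSA+shJIP1 against PE, F2r and Htr2a were called under the replicate block, Avpr1a with no filter or one prior variance, and Ednrb with no filter. Avpr1a was at 0.335 and a listed 0 FPKM in PE+TSA+shJIP1, and at 2.11 and 2.51 in PE. Ednrb did not reach the filter, with a listed 0 in both PE+TSA+shJIP1 libraries and 0.885 and 0.969 FPKM in PE. At such low levels the calls of Avpr1a and Ednrb are no support for a difference.

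None of the 8 other Rgs genes tested was called in any comparison. Rgs10 was at 14.4 and 17.6 FPKM in PE+TSA+shJIP1, 11.8 and 18.6 under PE+TSA, and 3.95 and a listed 0 in PE (2.93 ± 0.72 with both agents, limma adjusted p = 0.0577), and it was called under quantile normalization and without PE replicate 1, where PE+TSA against PE was called as well. Rgs9, Rgs17 and Rgs19 had adjusted p of 0.159 or more. Of the phospholipase C genes, Plcb4 was the most abundant beta isoform, at 19.4 and 16.9 FPKM in PE+TSA+shJIP1, 42.9 and 27.3 under PE+TSA, and 40.6 and 28.5 in PE (hairpin step -0.89 ± 0.30, limma adjusted p = 0.252), far above Plcb1. Plcd4 and Plce1 did not pass either (adjusted p of 0.105 or more), and none of the 10 tested was called. With no filter Plch1 was called with both agents, at 1 and 1.02 FPKM in PE+TSA+shJIP1 and 0.078 and a listed 0 in PE. At such low levels this call is no support for a difference.

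Further down, 2 of 9 protein kinase C and D genes tested rose with both agents (22.2%, beside 4.11% of all features), Prkci among them. Prkci, an atypical isoform that does not need diacylglycerol, was at 21.3 and 22 FPKM in PE+TSA+shJIP1, 7.73 and 11.7 under PE+TSA, and 8.69 and 5.32 in PE (1.53 ± 0.32, adjusted p = 0.0406). This call held in 6 of 14 alternatives, and was lost with no filter, the replicate block, one prior variance and with any library other than PE replicate 1 left out. Prkd1, a protein kinase D, was not called (1.03 ± 0.27 with TSA, adjusted p = 0.141). Of 12 diacylglycerol kinase and IP3 genes tested, Dgkz, which removes diacylglycerol, fell with both agents (8.33% called, beside 8.27% of all features). It was at 7.33 and 7.7 FPKM in PE+TSA+shJIP1, 12.8 and 11.3 under PE+TSA, and 19.2 and 20.4 in PE (-1.29 ± 0.22, adjusted p = 0.0275). This call held in 9 of 14 alternatives and was lost with any library other than PE replicate 1 left out. Dgke was not called (1.21 ± 0.32, adjusted p = 0.0688), and the IP3 receptor gene Itpr2 was at 3.28 and 1170 FPKM in PE+TSA+shJIP1 against 1.19 to 1.68 in the other 4 libraries, a value carried by 1 library.

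The receptor kinases and arrestins, which switch off occupied receptors, gave no call among 6 tested. In the hairpin step 5 of 6 were lower, beside 50.2% of all features. With both agents 5 of 6 were lower (median -0.52), beside 44.4% of all features. Adrbk1, which encodes GRK2, was at 4.4 and 2.33 FPKM in PE+TSA+shJIP1, 7.58 and 7.15 under PE+TSA, and 15.2 and 7.38 in PE (-1.46 ± 0.42 with both agents, limma adjusted p = 0.0771). Grk5, Arrb1 and Arrb2 had adjusted p of 0.12 or more. In the cyclic AMP arm that serves the beta-1 receptor, 2 of 20 tested rose and 1 fell with both agents (15%, beside 8.27% of all features). Akap5, an anchor that holds protein kinase A near receptors, was at 54.7 and 34.2 FPKM in PE+TSA+shJIP1, 20 and 17.2 under PE+TSA, and 6.32 and 11.5 in PE (2.21 ± 0.35, adjusted p = 0.0237). Pde4b, a phosphodiesterase, rose (1.27 ± 0.28, limma adjusted p = 0.0481), but this call held in 4 of 14 alternatives and was lost with a pseudocount of 0.1, no filter, trimmed-mean scaling, one prior variance and any library left out. Prkaca, a catalytic subunit of protein kinase A, was at 49.5 and 53.6 FPKM in PE+TSA+shJIP1, 132 and 98.3 under PE+TSA, and 146 and 123 in PE. It fell with both agents (-1.37 ± 0.22, limma adjusted p = 0.0246). The hairpin step (-1.13 ± 0.22, adjusted p = 0.111) and the TSA step (-0.24 ± 0.22, adjusted p = 0.593) did not pass. The call of Akap5 held in 9 of 14 alternatives and was lost with any library other than PE replicate 1 left out, and that of Prkaca held in 10 of 14 and was lost without a PE or a PE+TSA+shJIP1 library. Akap12 and Prkar1b were not called (lowest adjusted p = 0.2 and 0.087), although Prkar1b was called with both agents with no filter or one prior variance. Prkar1b was at 0.121 and a listed 0 FPKM in PE. The filter admitted it through the TSA-treated libraries, so its adjusted p of 0.087 is no support for a difference.

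**Figure D4:**
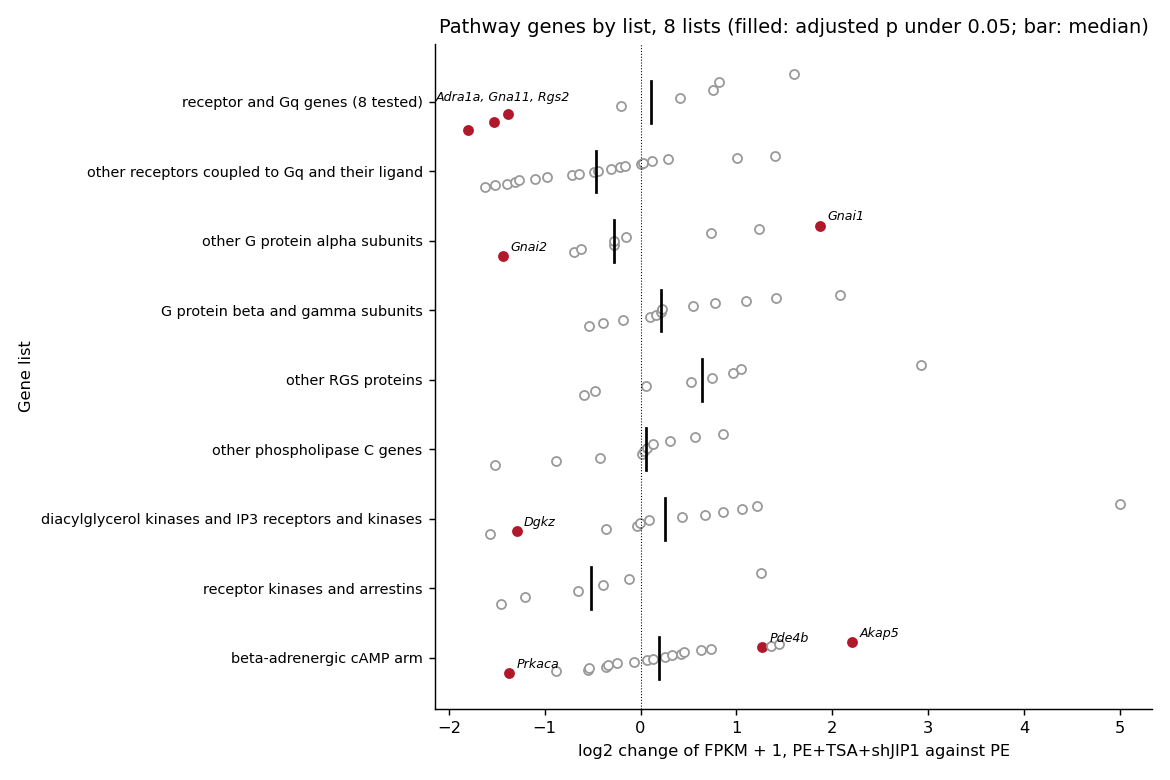
Change on the log2(FPKM + 1) scale in PE+TSA+shJIP1 against PE for the 8 receptor and Gq genes (top row) and the tested listings of 8 of the other lists, with a point for each listing, filled where the adjusted p is under 0.05, and a bar at the median of each list. The filled points below the top row are Gnai1, Akap5 and Pde4b on the right of 0 and Gnai2, Dgkz and Prkaca on the left, and the point near 5 is Itpr2.

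The features whose pattern over the 6 libraries was most like each gene were found by Pearson's r of log2(FPKM + 1), as a description. For Adra1a they were Gata5 (r = 0.997) and Cpt1b (0.996), and within the pathway lists Dgkz (0.994) and Avpr1a (0.972). For Gna11 they were Ficd (0.993) and Zbtb26 (0.992), and within the lists Dgkz (0.956) and Adcy6 (0.948). For Rgs2 they were Tnip1 and Zmynd11 (both 0.995), and within the lists Dgkz (0.962) and Prkaca (0.948). Dgkz was thus the pathway gene most like all 3 genes that fell. For Adrb1 they were Ttc12 and Zfp217 (both 0.993), with Akap5 (0.985) and Plcg1 (0.943) within the lists. For Gnaq they were Taf1c (0.985) and Srp9 (0.981), with Dgki (0.863) and Gng13 (0.861). For Adra1d they were Txnrd3 (0.997) and Ddx23 (0.996), with Gnai3 (0.961) and Prkar1b (0.954). For Adra1b they were E2f4 (listing 1 of 2; 0.982) and Htra1 (0.979), with Itpr3 (0.877) and Prkd2 (0.831), and for Rgs4 they were Pdgfa (0.988) and Rbms1 (0.984), with S1pr3 (0.894) and P2ry1 (0.815). With 6 libraries in 3 groups such values are easily reached: r was above 0.95 for 155 features with Adra1a, 168 with Rgs2 and 7 with Rgs4.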

How the data were processed

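The authors deposited FPKM values per gene for 6 libraries. Per the submitters' processing notes the tool was Cufflinks and the build rn6. Aligner, annotation, filters and strandedness: not given in the sources used here. How reads shared by paralogs such as Gnaq and Gna11, or by overlapping antisense genes, were assigned is therefore not known. No column was left unused. On log2(FPKM + 1), limma 3.58.1 (R 4.3.3) estimated 3 group means from the 6 libraries, leaving 3 residual degrees of freedom, with a trended prior variance, for features averaging 1 FPKM or more. P-values are two-sided and Benjamini-Hochberg adjusted over 10359 features within each comparison, with a threshold of 0.05. The fit was tested on simulated data in which a feature had the same spread in all 6 libraries, without a shallow library such as PE replicate 2. The genes and lists were chosen with earlier results of these data known. Named were the 9 genes, called pathway genes, and in each list the 2 listings with the smallest p per comparison. Depth relative to PE replicate 1 is the most frequent ratio of values below 0.3 FPKM (below 8 in PE replicate 2). All 9 symbols are current in RefSeq (GRCr8), which was used for names and promoters. Alternatives were another pseudocount, filters, scalings and prior, summed listings, a replicate block and leaving out each library. Some pathway genes picked by the naming rule, and 1 list, are not reported here.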

Additional observations from a re-analysis of the deposited data

How the results depend on the processing

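Over 14 alternatives the 8 genes tested gave 330 changes, of which 305 kept their direction and side of the threshold, 17 lost a call, 7 turned direction and 1, of Adra1d, crossed the threshold. The 7 were uncalled and came from leaving out a library: Rgs4 lay between -0.56 and 0.17 with both agents and between -0.18 and 0.54 with the hairpin, Adra1b between -0.22 and 0.35 with the hairpin, and Gnaq between -0.46 and 0.10 with TSA. Of the features called, 84 with TSA and 30 with the hairpin, no filter gave 14 and 1, one prior variance 36 and 2, and the replicate block 28 and 18. Leaving out a library, which also leaves fewer degrees of freedom, gave 6 to 237 with TSA, 8 to 18 with the hairpin and 18 to 981 with both (857 as reported, 22 without PE replicate 2). Pathway genes called were then 0 to 3, 0 to 1 and 0 to 9, the 1 being Itpr2 and not Gnai2, and for the hairpin step 0 with no filter, one prior variance or the replicate block. The median change of pathway genes was -0.03 with TSA and -0.09 with both under quantile normalization, 0.00 and -0.04 under trimmed-mean scaling, and 0.07 to 0.15 and 0.00 to 0.13 with a library left out. The cause of these shifts was not tested. Same-numbered libraries deviated together with r of 0.122, 0.040 and 0.074 across features. The labels link them by number only. With 2 libraries a group such low values cannot show whether they shared a preparation. Under the block Gna11 had an adjusted p of 0.0535, and Adra1a and Rgs2 stayed called. Depth is unknown beyond the relative values, so no counting error is given for the scarce genes.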

Other observations

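The ratio of Adra1a to Adrb1 within a library, which a single scaling factor per library cannot move, was 0.179 and 0.184 in PE+TSA+shJIP1, 0.534 and 0.505 under PE+TSA, and 1.35 and 1.36 in PE. It was computed after the values had been seen. The ratio of the summed alpha-1 receptors to Adrb1 was 0.513 and 0.626 in PE+TSA+shJIP1, 0.877 and 1.13 under PE+TSA, and 1.68 and 1.78 in PE. The ratio of Gnaq to Gna11 was 3.75 and 2.72 in PE+TSA+shJIP1, 0.954 and 0.984 under PE+TSA, and 0.665 and 0.512 in PE. In each of the 3 ratios the groups did not overlap. For the ratios to Adrb1 this follows from the levels above, where the groups stood apart in opposite orders, and adds nothing to them. The ratios were not tested.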
